A study of Mus musculus with 2 samples.

Results

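The myeloid-attracting CC chemokines Ccl2, Ccl3, Ccl4, Ccl6, Ccl7, Ccl8, Ccl9 and Ccl11 were followed across the cell classes of 2 single-cell libraries from mouse omental tumors. They were taken by gene symbol, and each of the 8 symbols matched 1 of the 32285 genes in the count matrices. CC chemokines are small secreted proteins that bind receptors of the Ccr family on leukocytes and draw those cells towards the source. Ccl2 and Ccl7 attract monocytes through Ccr2, Ccl3 and Ccl4 are related ligands that draw in myeloid and T cells, Ccl6 and Ccl9 are rodent ligands of Ccr1, Ccl8 acts in mice on Ccr8, and Ccl11 (eotaxin) attracts eosinophils through Ccr3. In tumors these ligands are known for bringing in the monocytes that become macrophages, and macrophages, neutrophils, fibroblasts and tumor cells can each make some of them.

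Both libraries came from C57BL/6J mice grafted intraperitoneally with KPCA cells, a mouse ovarian cancer line derived from fallopian tube epithelium. In KPCA.FSTKO the gene of follistatin, Fst, had been deleted, while KPCA.FSTKO_hFSTL3 is a selected line of the same FSTKO background that carries human FSTL3 on a plasmid, so both groups share the Fst deletion in the cancer cells while the host keeps Fst. Omental tumors were dissociated on day 10 after grafting, without treatment, and 4 tumors were pooled into 1 library per genotype. The series holds no tumor of unmodified KPCA cells, human FSTL3 is not part of the mouse reference, and the pooled tumors are not told apart.

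Each genotype had 1 library, hence no replicate, and no test was made. The 95% intervals in parentheses reflect counting error and nothing else. They are exact Poisson intervals for levels, Clopper-Pearson intervals for shares of barcodes and conditional binomial intervals for ratios. A level is the number of unique molecular identifiers (UMIs, which count captured transcripts) of a gene in a cell class per 1000000 UMIs of that class (CPM). Levels are compared between classes within a gene, since reads from the 3′ end do not rank one gene against another.

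A barcode was kept when mitochondrial genes gave less than 20% of its UMIs and when its number of genes lay above 200 and below 8000, which left 6777 of 7582 KPCA.FSTKO and 4041 of 4244 KPCA.FSTKO_hFSTL3 barcodes. The libraries held 168214773 and 80391504 UMIs before this filter, and 12 barcodes occurred in both. Each barcode was then placed in a class by its UMIs of marker genes, none of which is a chemokine ligand. The KPCA.FSTKO library gave 661 macrophage-like, 155 monocyte-like, 130 neutrophil-like, 374 stromal-like and 3926 cancer-like barcodes, with median depths of 12696, 14229, 2618.5, 17075 and 26777.5 UMIs. The KPCA.FSTKO_hFSTL3 library gave 127, 12, 3, 59 and 245 barcodes of these classes. Among the defining markers in the KPCA.FSTKO library, C1qa was found in 98.6% of macrophage-like, S100a9 in 96.9% of neutrophil-like, Col3a1 in 99.7% of stromal-like and Krt8 in 93.3% of cancer-like barcodes. Other markers of the lists were rare in the class they name, such as Epcam (1.86%), Cldn4 (2.17%) and Pax8 (17.04%) in cancer-like barcodes. Monocyte-like barcodes were set by Chil3 (100%) and F10 (97.4%), while Ly6c2 (8.39%), Ms4a4c (7.74%) and Plac8 (16.1%) were rare in them. The 3 neutrophil-like barcodes of the KPCA.FSTKO_hFSTL3 library held no UMI of S100a8, Csf3r or Cxcr2, and they are not used as a class below.

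The KPCA.FSTKO_hFSTL3 library stood apart. There, 3249 barcodes (80.4%) carried pancreatic acinar and macrophage markers together and were kept out of every class as mixed, against 57 in the KPCA.FSTKO library. Their median levels per 10000 UMIs were 97.0 for the acinar list, 30.9 for the macrophage list, 22.9 for the stromal list and 33.6 for the cancer list, and their median mitochondrial share was 11.6%. They held between 67.9% (Ccl6) and 83.9% (Ccl8) of the library's UMIs of a member, beside 76.1% of all its UMIs. The levels of this library given below therefore describe the smaller part of it that a class could take, and the part of free RNA in them was not tested.

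All 8 genes lie on chromosome 11 in blocks of 4 genes each (mouse build GRCm38, GENCODE annotation, in the numbering of the files' identifiers). The first block, from 82035571 to 82116799 (81.2 kb), holds Ccl2 (ENSMUSG00000035385, 82035571 to 82037453), Ccl7 (ENSMUSG00000035373, 82045712 to 82047525), Ccl11 (ENSMUSG00000020676, 82057823 to 82062955) and Ccl8 (ENSMUSG00000009185, 82115185 to 82116799), all on the plus strand. The second block begins 1456 kb further on and spans 91.8 kb. It holds Ccl9 (ENSMUSG00000019122, 83572919 to 83578636), Ccl6 (ENSMUSG00000018927, 83587882 to 83593087) and Ccl3 (ENSMUSG00000000982, 83647844 to 83649355) on the minus strand, and Ccl4 (ENSMUSG00000018930, 83662584 to 83664683) on the plus strand. Ccl11 and Ccl8 lie in the same block, and in the KPCA.FSTKO library the first was mainly a stromal and the second mainly a macrophage transcript. Of the 31-base stretches in the last 500 bases of the members' transcripts, at most 1.33% (Ccl6) occurred in another gene, so reads of one member could hardly be counted for another. Ccl2 overlaps Gm17268 and Ccl6 overlaps E230016K23Rik on the opposite strand.

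The 250 bases upstream of the start were held by the RefSeq promoter table (build GRCm38.p6) for 4 of the 8 members. They are shown because Ccl6, Ccl9 and Ccl8 were mainly macrophage transcripts and Ccl3 was highest in neutrophil-like barcodes. Each runs 5′ to 3′ on the strand of its gene and ends at the base before the RefSeq start, and capitals mark matches on either strand to TATAAA, to the ETS core GGAAGT, to the PU.1 core GAGGAA, to AP-1 (TGANTCA), to C/EBP (TTGCNNAA) or to the NF-kappaB consensus, with overlapping matches run together.
Ccl9 (chr11:83578637-83578886, minus strand): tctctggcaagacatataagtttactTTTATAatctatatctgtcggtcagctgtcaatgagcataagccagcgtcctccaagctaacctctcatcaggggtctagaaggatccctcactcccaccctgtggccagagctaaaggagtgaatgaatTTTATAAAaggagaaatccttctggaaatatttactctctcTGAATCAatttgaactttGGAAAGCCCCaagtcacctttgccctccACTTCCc
Ccl6 (chr11:83593088-83593337, minus strand): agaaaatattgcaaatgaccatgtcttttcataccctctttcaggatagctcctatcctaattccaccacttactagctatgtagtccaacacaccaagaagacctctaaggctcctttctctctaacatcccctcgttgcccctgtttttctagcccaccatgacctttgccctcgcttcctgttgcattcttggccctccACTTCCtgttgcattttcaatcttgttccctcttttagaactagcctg
Ccl8 (chr11:82114935-82115184, plus strand): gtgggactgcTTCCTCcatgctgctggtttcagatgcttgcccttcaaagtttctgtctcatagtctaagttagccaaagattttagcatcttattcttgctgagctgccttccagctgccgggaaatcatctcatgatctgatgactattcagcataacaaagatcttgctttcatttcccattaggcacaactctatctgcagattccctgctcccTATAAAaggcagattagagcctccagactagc
Ccl3 (chr11:83649379-83649628, minus strand): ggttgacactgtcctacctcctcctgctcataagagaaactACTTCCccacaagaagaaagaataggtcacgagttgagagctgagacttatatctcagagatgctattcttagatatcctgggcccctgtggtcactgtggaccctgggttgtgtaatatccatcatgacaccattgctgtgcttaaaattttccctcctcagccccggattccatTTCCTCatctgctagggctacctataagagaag
The ETS core lay 7 bases upstream of the start in Ccl9, 48 in Ccl6 and 209 in Ccl3, and 19.7% of all 32851 promoters in the table hold it. PU.1 is a transcription factor of the ETS family that macrophages and neutrophils use, and its core was found 33 bases upstream in Ccl3 and 240 in Ccl8 (23.3% of all promoters). TATAAA lay 32 bases upstream in Ccl8 and at 224, 94 and 92 bases in Ccl9 (12.4% of promoters). Ccl9 also held the AP-1 letters at 53 bases (6.75%) and the NF-kappaB consensus at 35 bases (7.25%), and none of the 4 windows held the C/EBP letters (9.56%). These matches are a description of letters, and no file here measures binding to them.

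Ccl6 and Ccl9, the ligands of Ccr1, were transcripts of nearly every macrophage-like and monocyte-like barcode. Ccl6 stood at 4614 CPM (4569 to 4659) in macrophage-like barcodes of the KPCA.FSTKO library and at 2859 CPM (2792 to 2926) in those of the KPCA.FSTKO_hFSTL3 library. Ccl9 stood at 1144 CPM (1122 to 1166) and 758.8 CPM (725 to 794) in the same classes. Monocyte-like barcodes carried similar levels, 5549 CPM of Ccl6 and 1055 CPM of Ccl9 in the KPCA.FSTKO library, which makes 1.203 (1.18 to 1.23) and 0.923 (0.882 to 0.965) times the macrophage-like level. Macrophage-like and monocyte-like barcodes together held most UMIs of both genes in that library, 65.0% and 20.4% of Ccl6 and 67.2% and 16.2% of Ccl9, while they held 6.16% and 1.61% of all UMIs. Ccl6 was found in 97.7% and Ccl9 in 95.2% of the macrophage-like barcodes. With every barcode thinned to 1000 UMIs these shares were 84.9% (82.0 to 87.6) and 58.1% (54.2 to 61.9), against 1.86% and 1.01% of cancer-like barcodes.

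Neutrophil-like barcodes also carried Ccl6, at 1226 CPM (1119 to 1341), which is 3.76-fold (3.44 to 4.12) lower than macrophage-like barcodes. Their Ccl9 stood at 58.5 CPM, 19.5-fold lower. Ccl6 was thus found in many neutrophil-like barcodes and Ccl9 in few. After thinning, 47.6% of neutrophil-like barcodes held Ccl6 and 6.35% held Ccl9.

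Ccl8, the ligand of Ccr8, was a macrophage transcript but not a monocyte one. It stood at 262.6 CPM (252 to 274) in macrophage-like and at 5.67 CPM (3.02 to 9.70) in monocyte-like barcodes of the KPCA.FSTKO library, a 46.3-fold (27.0 to 87.1) lower level. Macrophage-like barcodes held 84.3% of the library's Ccl8, the largest share that class had of any member. In the KPCA.FSTKO_hFSTL3 library the level was 336 CPM (314 to 360) in macrophage-like barcodes and 15.2 CPM, from 3 UMIs, in 12 monocyte-like barcodes. Stromal-like barcodes stood at 3.33 CPM and cancer-like ones at 1.48 CPM in the KPCA.FSTKO library. Few macrophage-like barcodes held the bulk of it, as described below.

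**Figure D1:**
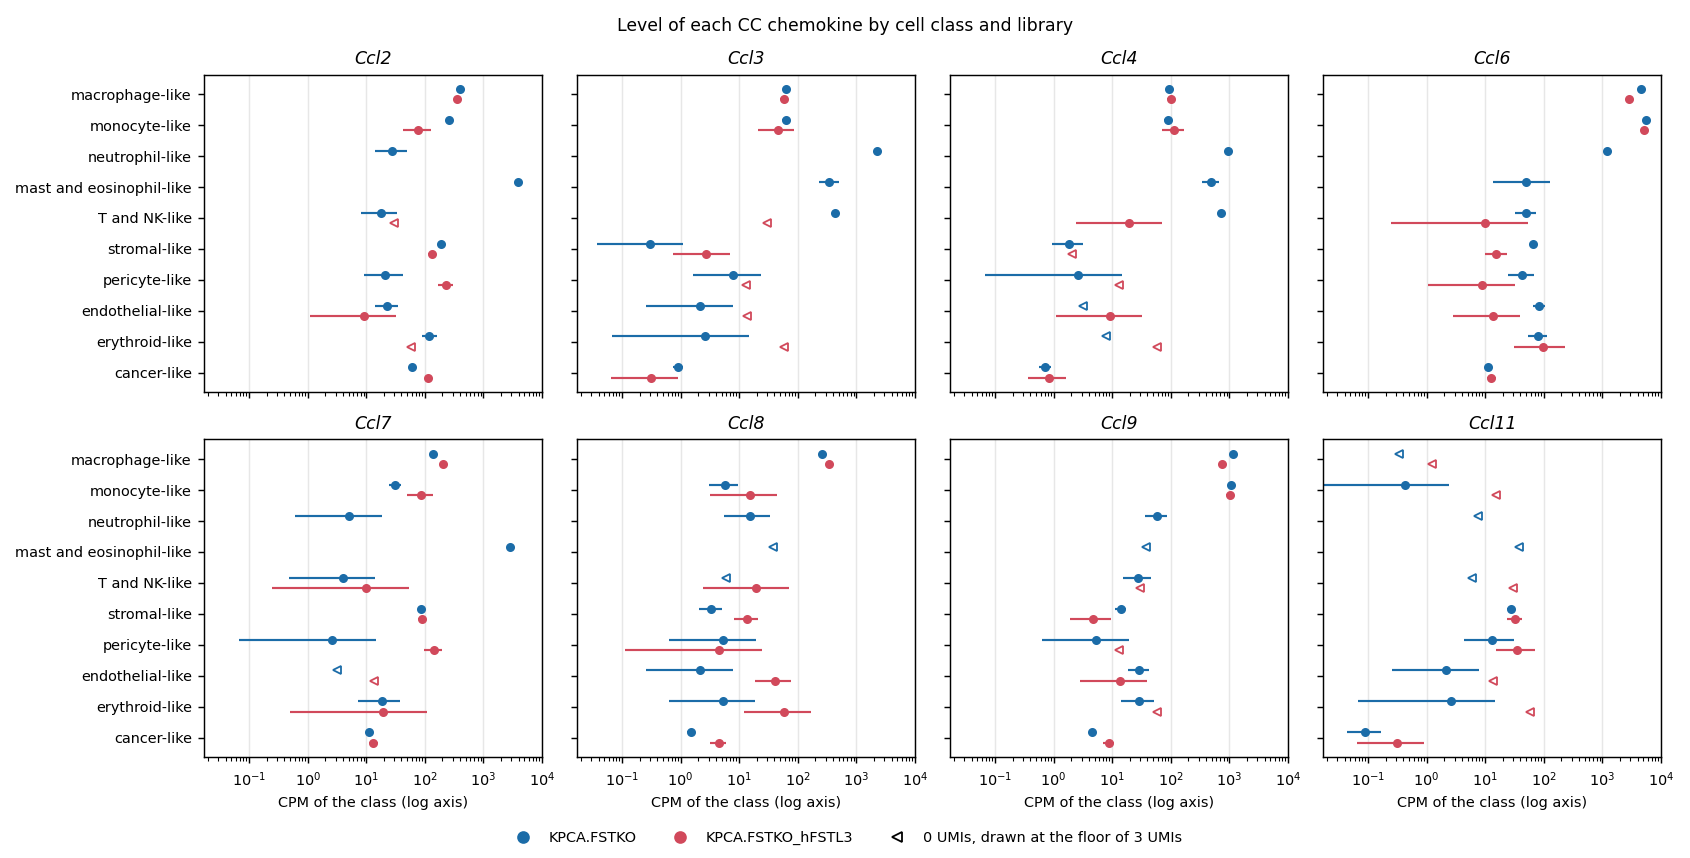
Level of each chemokine in CPM on a log axis, by cell class (rows) and library (colours), with exact 95% counting intervals. Classes with fewer than 9 barcodes are left out and open triangles mark 0 UMIs at the floor of 3 UMIs. Ccl6, Ccl8 and Ccl9 lie highest on the macrophage and monocyte rows (Ccl8 on the macrophage row alone), Ccl3 and Ccl4 on the neutrophil row, Ccl2 and Ccl7 on the mast and eosinophil row, and Ccl11 on the stromal and pericyte rows.

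Ccl2 and Ccl7, the ligands of Ccr2, were found in macrophage-like, monocyte-like, stromal-like and cancer-like barcodes. Ccl2 stood at 392 CPM (379 to 406) in macrophage-like, 190.0 CPM (180 to 200.8) in stromal-like and 59.7 CPM (58.3 to 61.2) in cancer-like barcodes of the KPCA.FSTKO library. The macrophage-like level was 6.56-fold (6.30 to 6.84) above the cancer-like one, or 4.12 instead of 2.71 on the log2 scale without the 5% of barcodes with most Ccl2. In the KPCA.FSTKO_hFSTL3 library the same classes stood at 356, 132 and 115 CPM. The order of these 3 classes was the same in both libraries, but in the second the stromal-like and cancer-like levels lay close, with a ratio of 1.15 (0.983 to 1.34). Ccl7 stood at 137.5, 87.4 and 10.99 CPM in macrophage-like, stromal-like and cancer-like barcodes of the first library and at 202, 89.9 and 13.2 CPM in those of the second. Monocyte-like barcodes of the first library stood at 257 CPM of Ccl2 and 30.98 CPM of Ccl7. The 9 pericyte-like barcodes of the second stood at 226 and 142 CPM, above its stromal-like levels. For each gene 1 barcode weighed on these values, with 23 of 51 Ccl2 UMIs and 22 of 32 Ccl7 UMIs. In the first library the order was the other way. Its 32 pericyte-like barcodes stood at 21.2 CPM of Ccl2 (8 UMIs) and 2.65 CPM of Ccl7 (1 UMI), below its stromal-like levels. For Ccl7 the stromal-like level was 7.95-fold (7.19 to 8.79) and 6.80-fold (5.29 to 8.74) above the cancer-like one.

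Cancer-like barcodes were low in Ccl2 per UMI, yet they held 48.9% of the Ccl2 UMIs of the KPCA.FSTKO library, where they made up 78.0% of all UMIs. They also held 31.6% of its Ccl7, about the share of the macrophage-like barcodes (31.2%). The Ccl2 of cancer-like barcodes was not spread evenly: 951 of 3926 held at least 1 UMI (24.2%, or 3.33% after thinning), and the 54 with most held 50% of it. Over the 6 expression clusters that were called cancer-like by the same markers, Ccl2 ranged from 26.5 to 72.3 CPM and Ccl7 from 4.23 to 20.02 CPM in that library. Endothelial-like barcodes stood at 22.4 CPM of Ccl2, with 21 UMIs of which 6 of 111 barcodes held 90.5%, and held no Ccl7 UMI, which allows up to 3.20 CPM (3 counts).

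Per UMI, both ligands were highest in a small class. The 16 barcodes with mast and eosinophil markers in the KPCA.FSTKO library carried the mast cell genes Cpa3 (374 UMIs), Fcer1a (202), Mcpt4 (172) and Kit (116), 1 UMI of Siglecf and none of the eosinophil genes Epx and Il5ra. Ccl2 stood at 3899 CPM (3480 to 4354) there, 9.94-fold (8.83 to 11.2) above macrophage-like barcodes, and 14 of the 16 barcodes held it. Ccl7 stood at 2884 CPM, 20.97-fold (18.2 to 24.2) above, but 148 of its 233 UMIs came from 1 barcode. With 16 barcodes the class gave 2.32% of the library's Ccl2 and 6.04% of its Ccl7. The KPCA.FSTKO_hFSTL3 library had 2 such barcodes with no UMI of Ccl2 or Ccl7, which at their depth allows up to 1403 CPM of either.

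Ccl3 and Ccl4, related ligands that activated neutrophils and macrophages release, were highest in neutrophil-like barcodes. In the KPCA.FSTKO library Ccl3 stood at 2216 CPM (2071 to 2368) in neutrophil-like and 62.8 CPM (57.6 to 68.3) in macrophage-like barcodes, a 35.3-fold (31.7 to 39.4) difference. Ccl4 stood at 939 CPM (846 to 1040) and 94.6 CPM (88.3 to 101), a 9.92-fold (8.75 to 11.2) difference. The 130 neutrophil-like barcodes held 41.3% of the library's Ccl3 and 15.5% of its Ccl4 while giving 0.276% of all UMIs. They were also the shallowest of the main classes (median 2618.5 UMIs), and after thinning to 1000 UMIs 42.1% (33.3 to 51.2) of them held Ccl3 against 4.76% (3.26 to 6.69) of macrophage-like and 0.0516% of cancer-like barcodes. The unthinned shares were 53.1%, 24.1% and 0.993%.

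The other 5 members that could be measured in neutrophil-like barcodes were lower there than in macrophage-like ones. Ccl6 was 3.76-fold, Ccl2 14.0-fold, Ccl8 17.2-fold, Ccl9 19.5-fold and Ccl7 27.0-fold lower, the last from 2 UMIs, with an interval of 7.47 to 223. In all, 2 of 7 members were at least 2-fold higher and 5 of 7 at least 2-fold lower in neutrophil-like barcodes, where 18.6% and 26.6% of the 11237 genes with at least 20 UMIs over both classes passed these limits. The median log2 ratio of the 7 members was -3.81 and that of all genes was -0.18. TMM scaling would move every ratio of this comparison by -0.26 on the log2 scale and left both counts as they were.

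Single barcodes weighed on Ccl3 and Ccl4, both outside the myeloid classes and within them. T and NK-like barcodes of the KPCA.FSTKO library held 220 Ccl3 UMIs (435 CPM) and 369 Ccl4 UMIs (730 CPM), but 191 and 339 of them lay in 1 barcode each. The KPCA.FSTKO_hFSTL3 library had 13 T and NK-like barcodes with 0 Ccl3 and 2 Ccl4 UMIs. Of its 85 Ccl3 UMIs in neutrophil-like barcodes, 83 lay in 1 barcode. For T and NK-like barcodes, and for neutrophil-like ones of the KPCA.FSTKO_hFSTL3 library, the levels describe a handful of droplets. In the KPCA.FSTKO library 5 of 130 neutrophil-like barcodes held 50% of the Ccl4 of their class, and 13 held 50% of the Ccl3. Of 155 monocyte-like barcodes, 3 held 50% of the Ccl4 and 6 held 50% of the Ccl3. In the KPCA.FSTKO_hFSTL3 library 2 of 127 macrophage-like barcodes held 50% of the UMIs of each gene.

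Ccl11, the eosinophil attractant, was a stromal transcript. Stromal-like barcodes held 182 of its 244 UMIs (74.6%) in the KPCA.FSTKO library, at 27.5 CPM (23.7 to 31.8), and stood at 31.8 CPM (23.3 to 42.2) in the KPCA.FSTKO_hFSTL3 library. Macrophage-like barcodes held no Ccl11 UMI in either library, which puts stromal-like levels at least 80.4-fold and at least 26.1-fold higher against a floor of 3 counts. Pericyte-like barcodes came next, with 13.2 CPM from 5 UMIs and 35.5 CPM from 8 UMIs, and their difference from stromal-like barcodes lay within counting error in both libraries (ratios of stromal to pericyte of 2.08, 0.875 to 6.48, and 0.894, 0.419 to 2.19). Ccl11 was found in 12.6% of the stromal-like barcodes of the first library and in 2.46% after thinning. Ccr3, its receptor, had 2 UMIs in macrophage-like, 1 in neutrophil-like and none in mast and eosinophil-like barcodes of that library.

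Set against cancer-like barcodes of the same library, all 7 members with at least 20 UMIs over both classes were at least 2-fold higher in macrophage-like barcodes, in both libraries, where 17.9% and 19.4% of all genes were. The median log2 ratio of the members was 7.04 and 6.44, beside -0.45 and -0.26 for all genes. Ccl6 had the largest ratio in the KPCA.FSTKO library, 418 (395 to 443), and Ccl2 the smallest, 6.56 (6.30 to 6.84). The KPCA.FSTKO_hFSTL3 ratios ran from 3.09 (2.82 to 3.38) for Ccl2 to 223 (187 to 269) for Ccl6. At least 2-fold lower were 34.6% and 28.5% of all genes and no member. The gates themselves require the macrophage list to be high in macrophage-like and low in cancer-like barcodes. Its median level was 217 against 0.46 in the KPCA.FSTKO library and 216 against 0.48 in the KPCA.FSTKO_hFSTL3 library. The part of the gates in the ratios between these classes was not tested, and levels per UMI of the macrophage markers are given below.

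Stromal-like over cancer-like barcodes gave a less even picture. In the KPCA.FSTKO library 7 of 8 members were at least 2-fold higher and 1, Ccl3, was lower with 2 against 100 UMIs (interval of the ratio 0.0401 to 1.24), where 18.4% of all genes were higher and 21.8% lower. In the KPCA.FSTKO_hFSTL3 library 3 of 6 members were higher (Ccl7, Ccl8 and Ccl11) and none was lower, beside 16.6% and 19.2% of all genes. In stromal-like barcodes Ccl6 and Ccl9 each rested largely on 1 barcode, with 257 of 432 Ccl6 UMIs and 56 of 92 Ccl9 UMIs. Whether this was the same barcode for both genes was not tested. Without the 5% of barcodes with most UMIs of the gene, the log2 ratio of Ccl9 went from 1.59 to -2.13, that of Ccl6 from 2.56 to 0.77, and 3 members instead of 7 were higher.

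**Figure D2:**
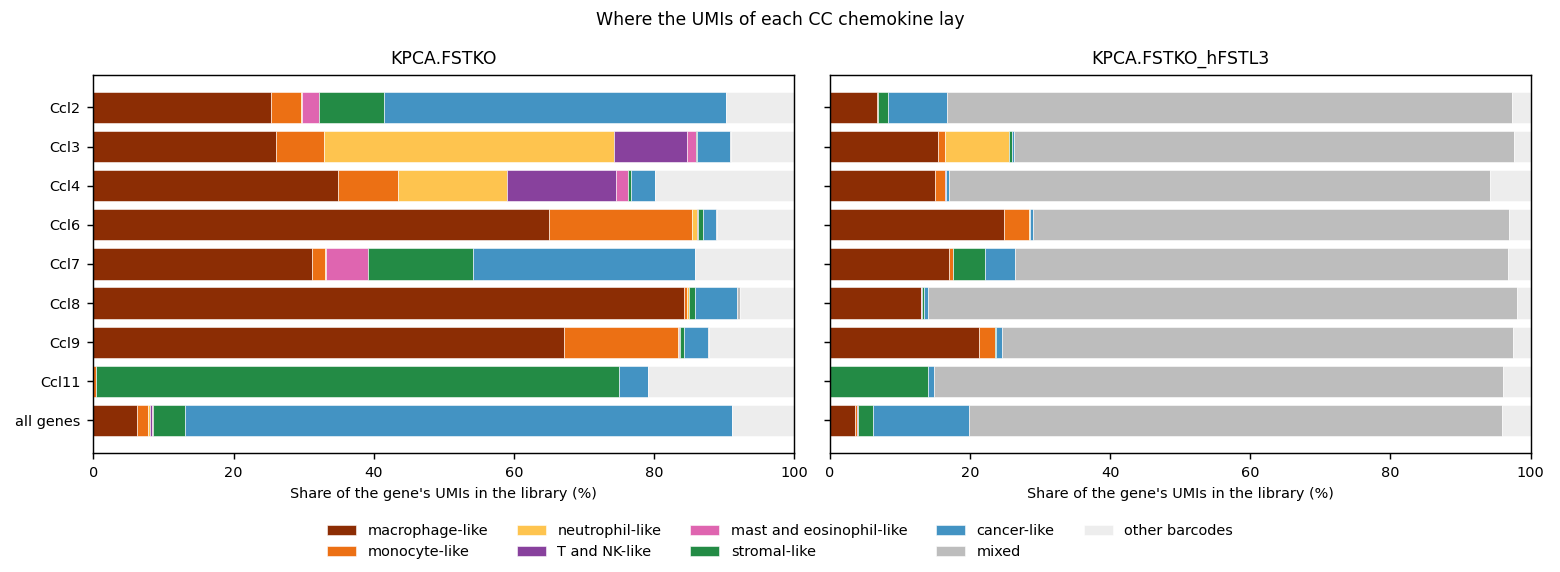
Share of each gene's UMIs that lay in each cell class (percent of the library's UMIs of that gene), with all genes together in the lowest row. In the KPCA.FSTKO library macrophage-like barcodes held 84.3% of Ccl8 and stromal-like ones 74.6% of Ccl11, and in the KPCA.FSTKO_hFSTL3 library mixed barcodes (grey) held the largest part of every row.

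Transcripts set free from broken cells can be caught in any droplet. The UMIs of a member per UMI of the macrophage markers were therefore taken in each class and divided by the same ratio in macrophage-like barcodes. For Ccl6 the value was 0.944 (0.891 to 0.999) in cancer-like, 1.29 (1.17 to 1.42) in stromal-like and 1.22 (0.826 to 1.75) in erythroid-like barcodes of the KPCA.FSTKO library. The stromal-like value rests on 432 UMIs, of which 257 lay in 1 barcode. A Ccl6 UMI was found in 24.7% of cancer-like barcodes (1.86% after thinning) and in 28.2% of erythroid-like ones (6.41% after thinning), a class that should lack the gene, with median depths of 26777.5 and 4155 UMIs. Ccl9 gave 1.59 (1.45 to 1.74) and Ccl8 2.22 (1.88 to 2.60) in cancer-like barcodes, above 1 but far below the ratios of Ccl2 and Ccl7.

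For Ccl2 and Ccl7 the values were far higher. The ratio was 60.1 (57.7 to 62.6) and 31.5 (29.1 to 34.2) times the macrophage value in cancer-like barcodes, and 44.2 (41.4 to 47.2) and 58.0 (52.5 to 64.1) times in stromal-like barcodes. The KPCA.FSTKO_hFSTL3 library gave 104 and 20.9 in cancer-like and 37.5 and 44.7 in stromal-like barcodes. Endothelial-like barcodes gave 5.11 (3.16 to 7.82) for Ccl2. Erythroid-like barcodes gave 22.1, where 42 of 46 Ccl2 UMIs lay in 1 barcode. The rule of the cancer-like class limits the macrophage markers, which are the denominator of these ratios, and its part in them was not tested. For Ccl3 and Ccl4 the cancer-like ratios were 5.66 and 3.01, from 100 and 80 UMIs among 3926 barcodes.

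**Figure D3:**
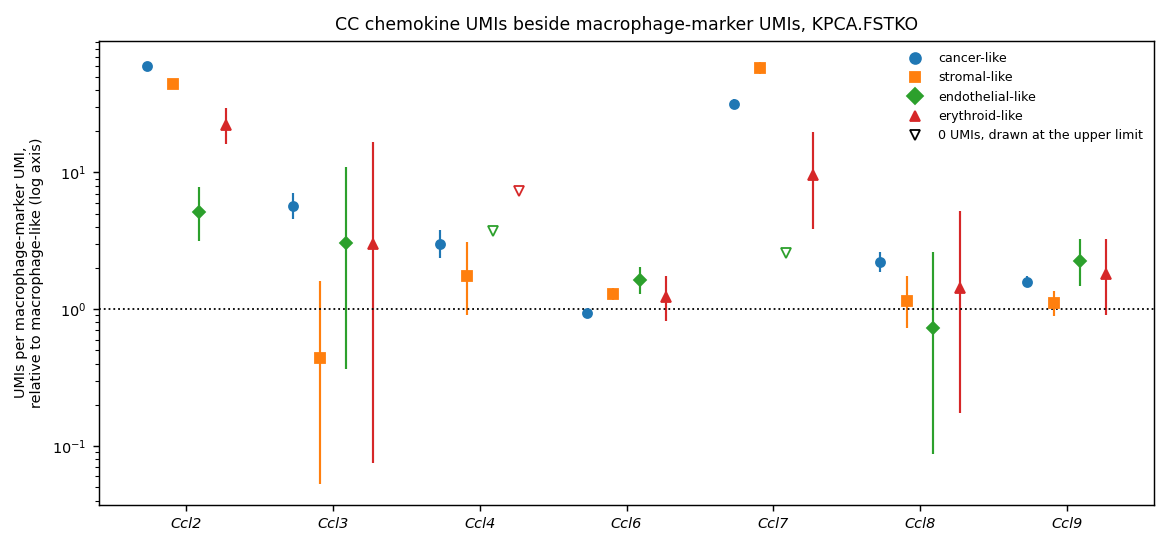
UMIs of each chemokine per UMI of the macrophage marker list in 4 classes of the KPCA.FSTKO library, divided by the same ratio in macrophage-like barcodes (log axis), with 95% intervals and a dotted line at 1. Ccl6 lies near the line in cancer-like, stromal-like and erythroid-like barcodes. In endothelial-like ones it lies further above the line, on 79 UMIs of which 51 lay in 1 barcode. Ccl2 and Ccl7 in cancer-like and stromal-like barcodes lie between 31.5 and 60.1. Ccl11 is left out because macrophage-like barcodes held none.

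In the mixed barcodes of the KPCA.FSTKO_hFSTL3 library the same ratio was 0.962 (0.936 to 0.989) for Ccl6, 1.21 for Ccl9, 1.46 for Ccl7, 1.62 for Ccl3, 1.81 for Ccl4, 2.27 for Ccl8 and 4.24 for Ccl2. Their Ccl6 stood at 362 CPM and their Ccl2 at 199 CPM (195 to 202). Ccl11 was present at 5.16 CPM, from 274 UMIs in 256 barcodes, where macrophage-like barcodes had none. Macrophage and stromal chemokines thus both occurred among the mixed barcodes, and whether they shared single droplets was not tested.

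Within macrophage-like barcodes the members differed in how evenly they were spread. The 34 barcodes (5% of 661) with most UMIs of the gene held 21.9% of Ccl9 and 25.9% of Ccl6, 46.2% of Ccl2, 56.9% of Ccl3, 57.3% of Ccl7, 71.9% of Ccl4 and 78.5% of Ccl8 in the KPCA.FSTKO library. The median macrophage-like barcode held 35 UMIs of Ccl6, 10 of Ccl9 and 1 of Ccl2, and none of the others. Of all Ccl8 UMIs, 50% lay in 8 barcodes, and the highest held 292 UMIs. The KPCA.FSTKO_hFSTL3 library gave a like order at the ends, with 19.6% of Ccl9 and 83.9% of Ccl8 in 7 of 127 barcodes, of which 2 held 50% of the Ccl8. Ccl6 and Ccl9 were thus general to macrophage-like barcodes, and Ccl4 and Ccl8 came from a small number of them.

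**Figure D4:**
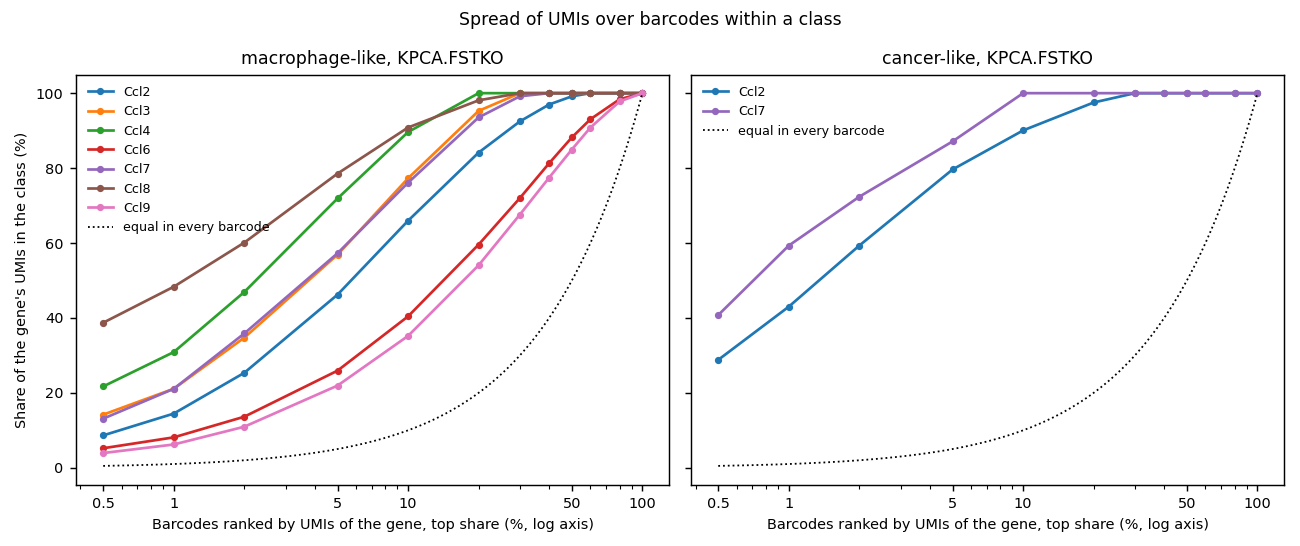
Share of a gene's UMIs held by the barcodes with most of it, as the share of barcodes taken grows (log axis), in macrophage-like (left) and cancer-like (right) barcodes of the KPCA.FSTKO library. The dotted curve is an equal number in every barcode. At 10% of macrophage-like barcodes Ccl8 reaches 90.8% and Ccl9 35.2%.

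Some members were found in a larger share of the barcodes that held another member than of those without it. After thinning, Ccl7 was found in 26.6% of the macrophage-like barcodes with Ccl2 and in 5.69% of those without it in the KPCA.FSTKO library, and in 45.5% and 6.67% in the KPCA.FSTKO_hFSTL3 library. In stromal-like barcodes of the first library the shares were 24.1% and 3.26%, and in cancer-like ones 4.79% and 0.991%. Ccl9 was found in 64.3% of macrophage-like barcodes with Ccl6 and 36.3% of those without. In neutrophil-like barcodes Ccl4 accompanied Ccl3 in 31.5% of barcodes against 9.72%. In stromal-like barcodes Ccl11 was as frequent with Ccl2 (3.45% of 29 barcodes) as without it (3.56%).

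Over the 13 class sums with at least 20 barcodes the same pairs had the closest levels. The correlation of log2(CPM + 1) was 0.96 between Ccl3 and Ccl4, 0.95 between Ccl6 and Ccl9 and 0.85 between Ccl2 and Ccl7, and it was below 0 between Ccl11 and Ccl3, Ccl4, Ccl6, Ccl8 and Ccl9. These sums share 2 libraries and their free RNA, and the values are descriptions. Among 15205 genes with at least 100 UMIs the patterns most like those of the members were Clec4a2 (0.99) and Clec4a1 (0.98) for Ccl9, Wfdc17 (0.98) and F13a1 (0.97) for Ccl6, Ccl12 and Ms4a14 (both 0.89) for Ccl8, and Cxcl16 (0.91) and Lonrf3 (0.90) for Ccl2. Slfn1 and Ccl4 (both 0.96) were most like Ccl3, Gm26756 (0.98) and Gm45894 (0.97) most like Ccl4, and Lgi4 (0.90) and 1700061G19Rik (0.89) most like Ccl7. For Ccl11 they were Vgll3 and Rarres2 (both 0.97).

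The libraries were then compared within a class, which sets hFSTL3-carrying tumors beside those without it, 1 library each, so genotype and library cannot be told apart. In macrophage-like barcodes none of 7 members differed by 2-fold in either direction, where 3.75% of all genes were at least 2-fold higher and 4.41% at least 2-fold lower in the KPCA.FSTKO_hFSTL3 library. Ccl6 stood at 0.619 (0.604 to 0.635) and Ccl9 at 0.663 (0.631 to 0.697) times the KPCA.FSTKO level. Ccl7 stood at 1.47 (1.32 to 1.63) and Ccl8 at 1.28 (1.18 to 1.39) times it, and Ccl2 (0.907), Ccl3 (0.931) and Ccl4 (1.05) lay close to 1. The values of Ccl3 and Ccl4 depended on few barcodes. In the KPCA.FSTKO_hFSTL3 library 1 barcode held 52 of 144 Ccl3 UMIs, and 1 held 101 of 245 Ccl4 UMIs. With marker limits 1.5 times stricter Ccl3 went from -0.10 to -1.50 on the log2 scale and Ccl4 from 0.07 to -0.77. TMM scaling shifts the log2 ratios of this comparison by -0.14, which would put Ccl4 below 1. The macrophage marker list had nearly the same median in both, 217 and 216 UMIs per 10000, while the acinar list stood at 0.554 and 10.1. Leaving out the 5% of barcodes with most UMIs moved Ccl8 from 0.36 to -0.07 on the log2 scale.

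In stromal-like barcodes 1 of 6 members was at least 2-fold higher (3.45% of all genes) and 2 were at least 2-fold lower (5.55%) in the KPCA.FSTKO_hFSTL3 library. Ccl8 was 4.06-fold (2.10 to 7.80) higher, from 20 against 22 UMIs in 59 and 374 barcodes. The 2 lower members were Ccl6 (4.204-fold) and Ccl9 (2.94-fold), whose KPCA.FSTKO levels each rested largely on 1 barcode as given above. Ccl7 (ratio 1.03, 0.845 to 1.24) and Ccl11 (1.15, 0.819 to 1.60) lay within 2-fold with intervals that span 1, and Ccl2 stood at 0.697 (0.597 to 0.811). TMM scaling shifts these log2 ratios by -0.11 and would put Ccl7 below 1.

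In cancer-like barcodes 1 of 7 members was at least 2-fold higher (5.94% of all genes) and 1 at least 2-fold lower (11.0%). Ccl8 was 3.02-fold (2.11 to 4.25) higher, at 4.47 against 1.48 CPM, and Ccl3 was lower on 3 against 100 UMIs with an interval of the ratio of 0.0702 to 1.04. Ccl2 was 1.93-fold (1.81 to 2.05) higher, just inside 2-fold. Over all kept barcodes Ccl2 also stood higher in the KPCA.FSTKO_hFSTL3 library, at 187.5 against 95.4 CPM. The median level of the acinar list in cancer-like barcodes was 4.38 there and 0.218 in the KPCA.FSTKO library. The part of free RNA in the Ccl2 difference was not tested. Without the 5% of barcodes with most UMIs of the gene 4 members were higher and 0 lower, with Ccl2 going from 0.95 to 1.59 and Ccl7 from 0.27 to 1.66 on the log2 scale. Ccl2 was higher in the KPCA.FSTKO_hFSTL3 library in 5 of the 6 cancer-like clusters, and in cluster 6 it stood at 26.0 against 28.4 CPM. Ccl9 was 1.89-fold (1.48 to 2.39) higher. Per UMI of the macrophage markers, Ccl8 and Ccl9 in these cancer-like barcodes stood at 4.26 and 3.69 times the macrophage-like value of that library, and the part of free RNA in both was not tested.

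**Figure D5:**
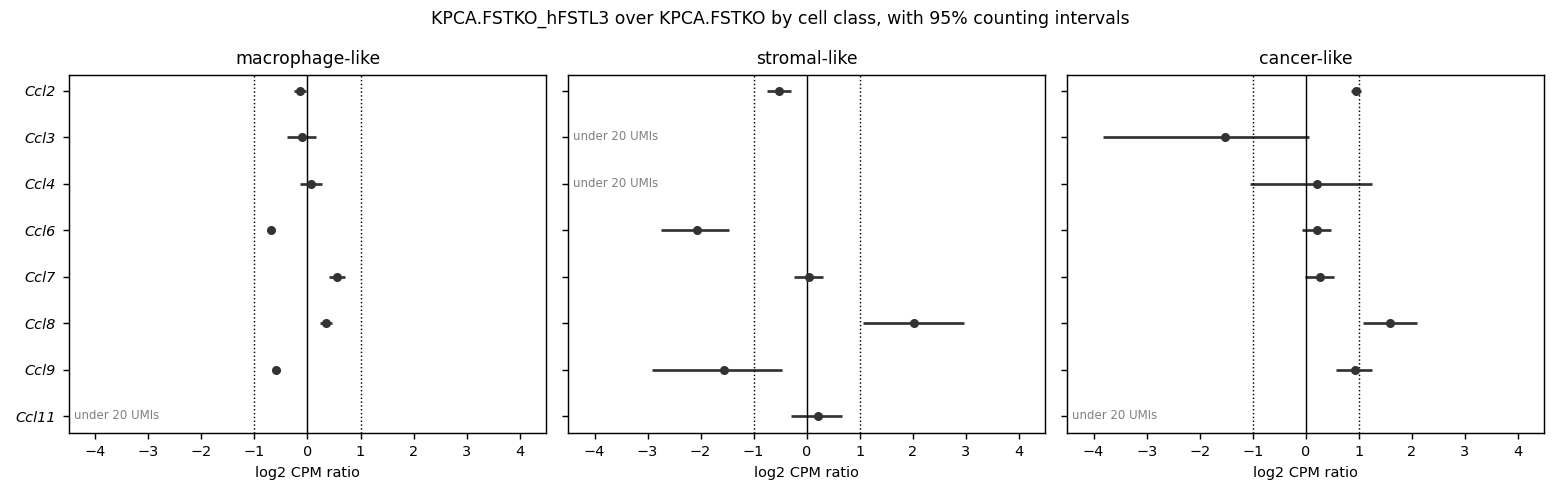
Log2 ratio of CPM in the KPCA.FSTKO_hFSTL3 library over the KPCA.FSTKO library for each chemokine within macrophage-like, stromal-like and cancer-like barcodes, with 95% counting intervals and dotted lines at a 2-fold difference. All macrophage-like values lie inside the dotted lines, and Ccl8 lies above them in stromal-like (2.02) and cancer-like (1.60) barcodes. Over all kept barcodes Ccl8 stood at 91.4 CPM in the KPCA.FSTKO_hFSTL3 library and at 19.2 CPM in the KPCA.FSTKO library.

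The other genes of this system were the receptors and the remaining CC ligands, 18 genes with 1 row each in the matrices. In the KPCA.FSTKO library 8 of the 10 that could be measured were at least 2-fold higher in macrophage-like than in cancer-like barcodes, and in the KPCA.FSTKO_hFSTL3 library 8 of 9, with none lower, beside 17.9% and 19.4% of all genes. In stromal-like over cancer-like barcodes 3 of 10 were higher and 1 lower in the first library, and 2 of 5 were higher and 1 lower in the second, where 18.4% and 16.6% of all genes were higher and 21.8% and 19.2% lower. The receptors of the members differed in where they were found. Ccr8, the receptor of Ccl8, had no UMI in macrophage-like barcodes of either library and stood at 33.6 CPM (17 UMIs) and 147 CPM (15 UMIs) in T and NK-like barcodes. Ccr2, the receptor of Ccl2 and Ccl7, stood at 189 CPM in macrophage-like and 17.8 CPM in neutrophil-like barcodes of the KPCA.FSTKO library. Ccr1, the receptor of Ccl3, Ccl6 and Ccl9, was 3.50-fold (3.14 to 3.89) higher in neutrophil-like barcodes, at 1003 against 287 CPM. Ccrl2, a receptor-like protein that binds chemerin, was 5.31-fold higher there. Of 9 measured genes, 2 were higher and 6 lower in neutrophil-like than in macrophage-like barcodes, beside 18.6% and 26.6% of all genes.

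Ccl12, a further ligand of Ccr2 that lies among the genes most like Ccl8, stood at 165 CPM in macrophage-like and 11.3 CPM in monocyte-like barcodes of the KPCA.FSTKO library. Ccl24, an eotaxin like Ccl11, stood at 70.1 CPM in macrophage-like and 45.2 CPM in stromal-like barcodes, whereas Ccl11 had no UMI in macrophage-like barcodes. Monocyte-like against macrophage-like barcodes gave 0 of 7 members higher and 2 lower (Ccl7, 4.44-fold, and Ccl8, 46.3-fold), beside 3.16% and 5.35% of all genes, and 0 of 9 pathway genes higher and 3 lower. Between the libraries, 3 of 9 of these genes were higher (3.75% of all genes) and 1 lower (4.41%) in macrophage-like barcodes. Ccr2 (2.09-fold), Ccl17 (2.25-fold) and Ccl24 (2.50-fold) were higher and Ccl5 was lower (6.90 against 37.2 CPM) in the KPCA.FSTKO_hFSTL3 library, while no member passed 2-fold there. In stromal-like barcodes 0 of 6 of these genes were higher and 3 lower between the libraries, and in cancer-like barcodes 2 of 10 were higher and 2 lower, where 3.45% and 5.94% of all genes were higher and 5.55% and 11.0% lower.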

How the data were processed

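Tumors of each genotype were pooled (4 per library) and sequenced with a 10x Genomics 3′ kit. The authors aligned reads to mm10 with Cell Ranger (version 3.1.0 in their notes, 7.2.0 in the matrix headers) and deposited raw UMI counts per gene and barcode, without normalization and without the filters of their methods. Samples were grouped by title.

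The filters of the methods were applied here. Levels of marker lists per 10000 UMIs gated single barcodes: at least 3 markers and 80 (macrophage, stromal), 60 (neutrophil) or 15 (cancer, with under 10 of the macrophage and erythroid lists). Member UMIs were added up within a class and scaled to CPM by its total UMIs. A member or gene with at least 20 UMIs over both sides was called higher or lower at 2-fold. The text names all 8 members, pathway genes that a sentence turns on and the 2 genes most like each member. The members, lists, thresholds and motifs were chosen with earlier results of these data known, and the gates were set after marker distributions and member values had been seen.

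Alternatives changed the barcode filter, the gate (Seurat 5.3.0 clusters in R 4.3.3, looser and stricter limits), doublets, TMM scaling (edgeR 4.0.16, scaling only) and the thresholds. Doublets were kept, and Scrublet in scanpy 1.11.5 marked 1.33% and 0.0247% of barcodes, the second too few to have worked. The counting step was tested on simulated data. Python 3.11.15, numpy 2.4.6, scipy 1.17.1 and pandas 2.3.3 were used. Values of 1 gene of the pathway list are not reported here.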

Additional observations from a re-analysis of the deposited data

How the results depend on the processing

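Of 284 recounts of members under 14 settings, 262 stayed within 1.5 times the reported count. Of 588 log2 ratios 494 stayed within the counting interval, 93 moved beyond it and 1 that had been called at 2-fold reversed. Ratios not called at 2-fold were sorted by the interval alone, also where their sign changed. For example, Ccl4 in cancer-like barcodes between the libraries went from 0.21 to -1.86 (log2) with classes from clusters. The count of members higher in macrophage-like than in cancer-like barcodes was 7 in both libraries under each setting but the deeper thinning, which was run for shares of barcodes alone. With classes from clusters, 1 member was lower in macrophage-like than in cancer-like barcodes of KPCA.FSTKO, 0 in stromal-like ones of KPCA.FSTKO, 1 in stromal-like ones of KPCA.FSTKO_hFSTL3, and 2 were lower in cancer-like barcodes between the libraries. A stricter gate gave 1 lower in macrophage-like and 2 higher in cancer-like barcodes between the libraries, and a looser one gave 1 lower in stromal-like over cancer-like barcodes of KPCA.FSTKO_hFSTL3. Without the 5% of barcodes with most UMIs, stromal-like over cancer-like barcodes gave 3 higher in KPCA.FSTKO and 1 lower in KPCA.FSTKO_hFSTL3, and between the libraries 1 was lower in macrophage-like, 0 lower in stromal-like, and 4 higher and 0 lower in cancer-like barcodes. Ccl9 then reversed in stromal-like over cancer-like barcodes of KPCA.FSTKO, to -2.13 (log2). At 1.5-fold, 1 was lower in stromal-like over cancer-like barcodes of KPCA.FSTKO_hFSTL3, and between the libraries 2 were lower in macrophage-like and 3 higher in cancer-like barcodes. At 3-fold, 0 were lower in stromal-like over cancer-like barcodes of KPCA.FSTKO, and between the libraries 1 was lower in stromal-like and 0 lower in cancer-like barcodes. At a minimum of 100 UMIs, stromal-like over cancer-like barcodes of KPCA.FSTKO_hFSTL3 gave 1 higher, and stromal-like barcodes between the libraries gave 0 higher and 1 lower. The changes under other folds and UMI minimums follow from the limit itself, and the cause of the others was not tested. In cancer-like barcodes between the libraries, Ccl2 (0.95, log2) went to 1.59 and Ccl7 (0.27) to 1.66 without the top 5% of barcodes. The limit of 3000 UMIs per barcode was chosen after seeing the data. No paired analysis was possible because each genotype has 1 library.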
